A study of Drosophila melanogaster with 6 samples.

Results

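Transcripts of 10 genes known to be switched on quickly by neuronal activity or stress were followed in heads of female Drosophila melanogaster. They were Hr38, sr, CG14186, cbt, kay, Jra, Atf3, puc, Ets21C and Hr3. All probe sets annotated with exactly 1 of these symbols were taken, which gave 12 of the 18769 probe sets tested, and no probe set with several symbols named any of them. Hr38 and kay had 2 probe sets each and the others 1. Of the 12, 9 had a mean log2 value of at least 5 over all arrays. The probe set of Ets21C and the weaker probe sets of Hr38 and kay lay below it, close to the arrays' lower quartiles of 3.99 to 4.16. They are called dim here, and changes in them may be understated.

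The groups were Tim-Fbl heads at ZT15 (1 array), Tim-Fbl heads at ZT3 (1 array), control heads at ZT15 (2 arrays) and control heads at ZT3 (2 arrays). ZT is zeitgeber time in hours, normally counted from lights-on, so ZT15 falls in the early night and ZT3 in the morning. Tim-Fbl is the entry of the RNAi field of the labels. Neither the construct, the cells it acts in, the flies' age nor the genotype of the controls is given there. All flies were kept at 25 °C, and whole heads were measured, so fewer cells of a type and less RNA per cell cannot be told apart. The level of fbl, the pantothenate kinase gene of the strain's name, was 7.49 and 7.47 log2 units in Tim-Fbl at ZT15 and ZT3, against 9.11 to 9.28 on the 4 control arrays. The labels do not say whether control replicates came from separate cultures, and the spread behind each p-value may therefore be that of repeated measurement and not of separate flies. No Tim-Fbl value has a replicate at its own time, and the number of arrays limits the precision.

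Immediate early genes are transcribed within minutes of a stimulus from factors already present in the cell, and many of them encode transcription factors. In neurons, firing lets calcium in, and kinases carry the signal to the nucleus, so transcripts such as fly Hr38 and sr serve as markers of recent activity. A partly shared set, built around the Jun and Fos subunits of the factor AP-1, is switched on by the stress kinase JNK in many cell types, and puc feeds back to switch that kinase off.

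The arrays were alike in overall distribution, with medians of 5.46 to 5.51 log2 units, and replicate control arrays correlated at r = 0.996 across probe sets at each time. Both Tim-Fbl arrays and control ZT15 replicate 2 had a lower median 18S rRNA signal, 11.8 in Tim-Fbl at ZT15, 11.5 in Tim-Fbl at ZT3 and 11.4 in that control, against 12.3 to 12.7 on the other control arrays. The median of 12 poly-A spike-in probe sets was 6.76 in Tim-Fbl at ZT15 and 5.17 in Tim-Fbl at ZT3, against 5.22 to 5.89 on the control arrays. Markers fixed for the tissue were present. The neuronal gene elav lay between 9.73 and 10.6 and the glial gene repo between 9.92 and 10.3 over the 6 arrays, and the photoreceptor channel gene trp lay between 12.3 and 12.9.

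**Figure D1:**
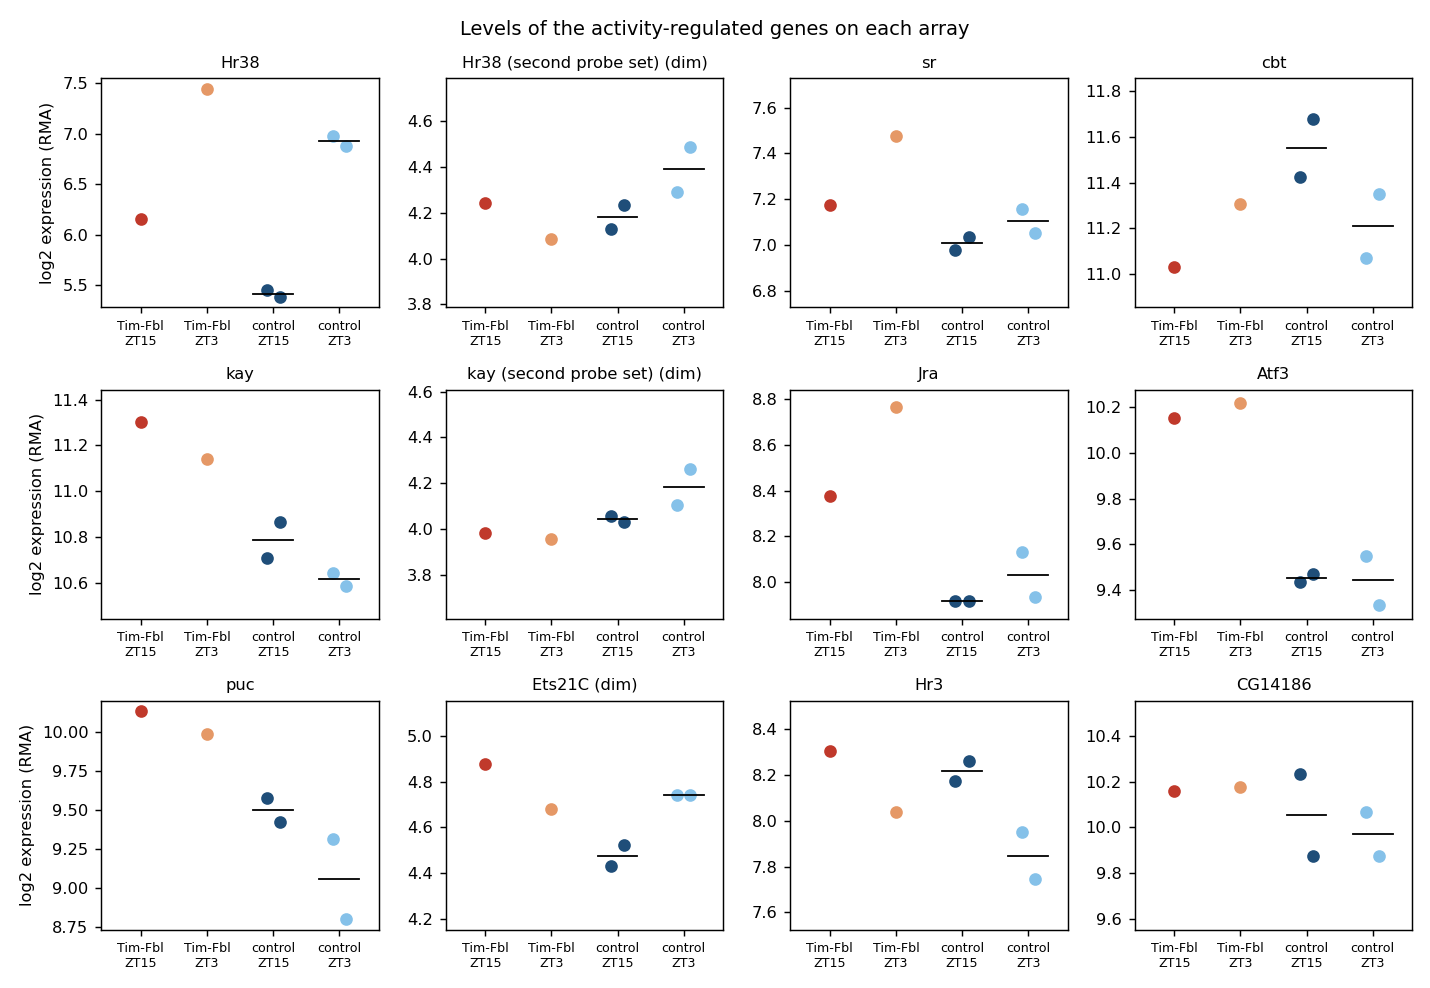
Log2 expression (RMA, vertical axes with a separate scale for each probe set) of the 12 probe sets on every array, by strain and time. Points are arrays, black bars are means of the 2 control arrays, and dim marks a mean log2 under 5. The Tim-Fbl points of kay, Jra, Atf3 and puc lie above all 4 control points, and Hr38 is lower at ZT15 than at ZT3 in both strains.

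Strain was examined first, averaged over both times. Of the 12 probe sets, 5 were higher in Tim-Fbl and 0 were lower (limma, adjusted p under 0.05), and 7 did not pass. Over all probe sets, 5.44% were called higher and 3.35% lower, and over those that were not dim 9.01% and 4.87%. The members were chosen with earlier results of these data known, so such shares, here and below, are background and not an independent comparison. The 5 were puc, Atf3, Hr38, Jra and kay, with rises between 0.52 and 0.78 on the log2 scale. The median difference was 0.22 over the 12 probe sets and 0.52 over the 9 that were not dim, against -0.03 over all probe sets and 0.07 over all that were not dim.

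The AP-1 genes rose together. Atf3 encodes a basic leucine zipper factor related to Jun and Fos. It stood at 10.15 and 10.22 in Tim-Fbl at ZT15 and ZT3, against 9.44 and 9.47 in controls at ZT15 and 9.55 and 9.34 in controls at ZT3. The Tim-Fbl arrays were well above every control array, and the control arrays at the different times overlapped. The difference of 0.74 ± 0.086 (SE) on the log2 scale was a 1.67-fold rise (limma adjusted p = 0.00405).

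Jra, the Jun subunit, had 8.38 and 8.77 in Tim-Fbl at ZT15 and ZT3. Controls had 7.92 on each array at ZT15, and 8.13 and 7.94 at ZT3. The gap between strains, 0.60 ± 0.096 (SE), was larger than the spread of the controls and passed (limma adjusted p = 0.0133). The Jra probe set carries the manufacturer's suffix for sequence shared with other transcripts, so it may also measure those.

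The brighter probe set of kay, the Fos subunit, read 11.3 and 11.1 in Tim-Fbl at ZT15 and ZT3, against 10.7 and 10.9 in controls at ZT15 and 10.6 on each array at ZT3. Its rise of 0.52 ± 0.079 (SE) was the smallest of the 5 (limma adjusted p = 0.0111). The dim kay probe set, at 3.96 to 4.26 on all arrays, differed by -0.14 and did not pass (limma adjusted p = 0.291). With both probe sets averaged the difference of kay was 0.19 and did not pass (limma adjusted p = 0.134).

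The phosphatase gene puc, transcribed in response to JNK and acting against it, showed the largest strain difference of the 12. It had 10.1 and 9.98 in Tim-Fbl at ZT15 and ZT3, against 9.58 and 9.42 in controls at ZT15 and 9.31 and 8.80 in controls at ZT3. The control pair at ZT3 was 0.51 apart, the widest gap of any of these probe sets, where the median gap of all probe sets was 0.12. Despite that spread the rise of 0.78 ± 0.15 (SE), 1.72-fold, passed (limma adjusted p = 0.0233). Ets21C, an ETS-family factor whose transcription JNK can induce, was dim, at 4.87 and 4.68 in Tim-Fbl at ZT15 and ZT3 and 4.43 to 4.74 in controls. Its difference of 0.17 ± 0.11 (SE) did not pass.

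Among the markers of neuronal firing only Hr38 passed for strain. Hr38 encodes the fly's NR4A nuclear receptor. Its brighter probe set read 6.15 in Tim-Fbl at ZT15, against 5.45 and 5.38 in controls, and 7.45 in Tim-Fbl at ZT3, against 6.98 and 6.88 in controls. At each time the Tim-Fbl array was the highest, by 0.74 over the control mean at ZT15 and by 0.52 at ZT3. The combined difference was 0.63 ± 0.085 (SE), a 1.54-fold rise (limma adjusted p = 0.00709). The dim Hr38 probe set, at 4.24 and 4.09 in Tim-Fbl at ZT15 and ZT3 and 4.13 to 4.49 in controls, differed by -0.12 ± 0.11 (SE) and did not pass (limma adjusted p = 0.490). With both probe sets averaged the strain difference of Hr38 was 0.25 and did not pass (limma adjusted p = 0.111).

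sr (stripe) encodes a zinc finger factor of the EGR family and is also known for specifying tendon cells. Its levels were 7.17 and 7.48 in Tim-Fbl at ZT15 and ZT3, against 6.98 and 7.03 in controls at ZT15 and 7.16 and 7.05 in controls at ZT3. The Tim-Fbl arrays were the highest of the 6, though the ZT15 value exceeded the highest control by little. The difference of 0.27 ± 0.083 (SE) had a 95% interval of 0.07 to 0.46 and did not pass after adjustment (limma adjusted p = 0.0868).

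CG14186, a gene without a name, known from fly work as induced by neuronal firing, differed by 0.15 ± 0.12 (SE), with a 95% interval of -0.12 to 0.43. It read 10.16 and 10.18 in Tim-Fbl, within the control range of 9.87 to 10.23. Hr3, a nuclear receptor of the ROR type known for its part in the ecdysone response, differed by 0.14 ± 0.088 (SE), with a 95% interval of -0.07 to 0.34. cbt (cabut), a zinc finger factor of the TIEG family that responds to sugar, was the only bright probe set with a value below 0, at -0.21 ± 0.16 (SE) and a 95% interval of -0.58 to 0.16. None of these 3 passed, and each interval still holds differences at least as large as that measured for sr, in one direction or the other.

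**Figure D2:**
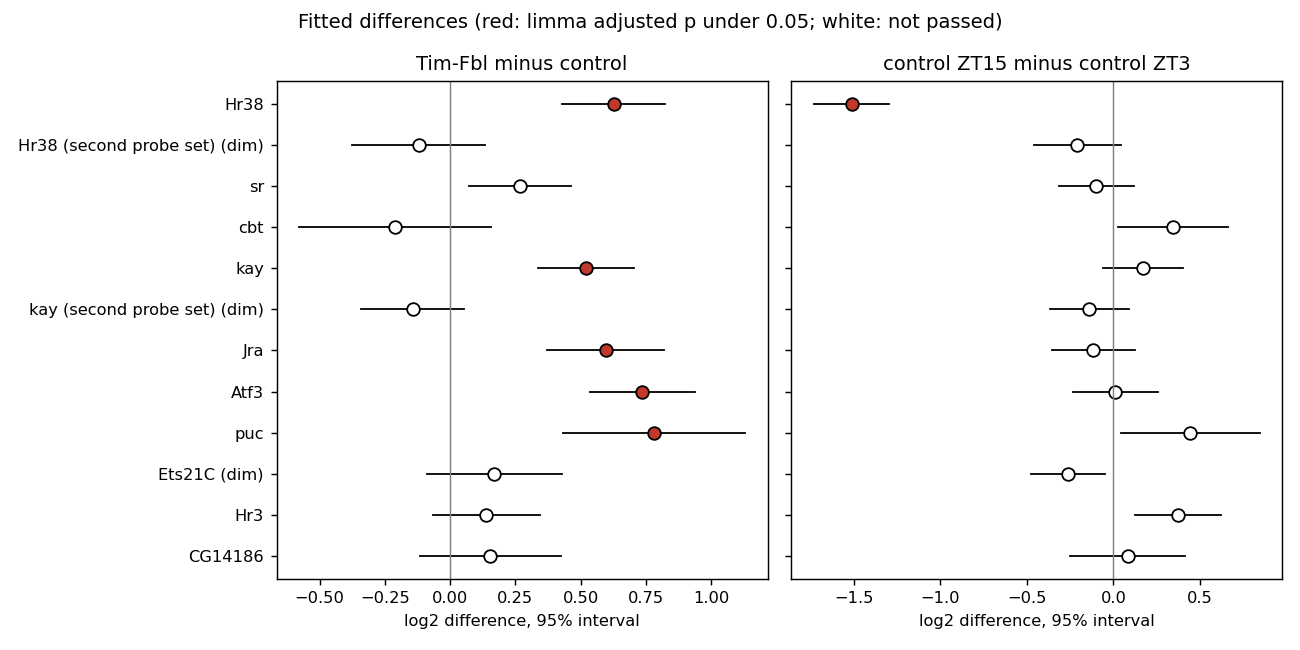
Fitted log2 differences (horizontal axes) with 95% intervals for the 12 probe sets, Tim-Fbl minus control on the left and ZT15 minus ZT3 in controls on the right. Red points passed at a limma adjusted p under 0.05. puc, Atf3, Hr38, Jra and kay are red on the left, and Hr38 is the only red point on the right, at -1.51.

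The values at each time were also set side by side, without a test because Tim-Fbl had 1 array per time. At ZT15 the Tim-Fbl array lay above both control arrays for 9 of the 12 probe sets, where 34.3% of all probe sets did. At ZT3 it lay above both for 8 of the 12, where 37.7% of all did. Among the 9 that were not dim the counts were 7 at ZT15 and 8 at ZT3. Of all 10479 probe sets that were not dim, 4712 and 5698 did so. Both Tim-Fbl arrays exceeded all 4 control arrays for 5 of the 12, namely sr, kay, Jra, Atf3 and puc, against 16.5% of all probe sets, and 1 of 12, the dim kay probe set, lay below all 4, against 19.9% of all. The 5 were all among the 9 that were not dim. Of all 10479 probe sets that were not dim, 2780 exceeded all 4 control arrays and 1680 lay below them. Hr38 is not among the 5 because its morning control values exceeded the Tim-Fbl value of the early night. Differences from the control mean were 0.46 at ZT15 and 0.73 at ZT3 for Jra, 0.64 and 0.93 for puc, 0.70 and 0.77 for Atf3, and 0.52 at each time for kay.

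Each Tim-Fbl array was also left out in turn, which left 1 array in that group. With the Tim-Fbl ZT3 array left out, 2 of the 5 passed, Atf3 (0.70) and Hr38 (0.74), and kay (0.52), Jra (0.46) and puc (0.64) did not. With the Tim-Fbl ZT15 array left out, 2 passed, Atf3 (0.77) and Jra (0.73), and Hr38 (0.52), kay (0.52) and puc (0.93) did not. With 1 Tim-Fbl array left, each value equals that array's difference from the control mean of its time, given above. That these values lie above 0 is thus no separate check. The low 18S rRNA signal of the Tim-Fbl arrays was shared by control ZT15 replicate 2. That array and control ZT15 replicate 1 read 10.86 and 10.71 for kay, 9.47 and 9.44 for Atf3, 7.92 each for Jra, 9.42 and 9.58 for puc, and 5.38 and 5.45 for Hr38. The part of the differences between arrays in the strain result was not tested.

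Time of day was examined in control heads, with the early night (ZT15) set against the morning (ZT3). Only Hr38 passed. Its brighter probe set averaged 5.42 ± 0.048 in controls at ZT15 and 6.93 ± 0.070 at ZT3 (SD, n = 2 each). That is 2.85-fold lower at ZT15, a log2 difference of -1.51 ± 0.092 (SE, limma adjusted p = 0.00181), and it ranked 36 in size among the 18769 probe sets. So 1 of 12 was lower and 0 were higher, where 0.389% of all probe sets were called lower and 0.314% higher. The dim Hr38 probe set, at 4.13 and 4.23 in controls at ZT15 and 4.29 and 4.49 at ZT3, differed by -0.21 ± 0.10 (SE) without passing. The mean over both probe sets was -0.86 and passed (limma adjusted p = 0.0180).

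sr, the other gene used as a marker of firing, did not pass, with a difference of -0.10 ± 0.092 (SE) and a 95% interval of -0.32 to 0.12. CG14186 differed by 0.08 ± 0.14 (SE). For the AP-1 genes the time differences were 0.01 for Atf3, -0.12 for Jra and 0.17 for kay, none of which passed (limma adjusted p between 0.400 and 0.966). The time of day thus gave a called difference for Hr38 alone among the 12, although whether the others differ from Hr38 was not tested.

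Hr3, puc and cbt had values above 0 that did not pass. Hr3 read 8.18 and 8.26 in controls at ZT15, against 7.95 and 7.74 at ZT3, a difference of 0.37 ± 0.10 (SE, limma adjusted p = 0.186). For puc the difference was 0.44 ± 0.17 (SE), but 0.70 without control ZT3 replicate 1 and 0.19 without control ZT3 replicate 2. For cbt it was 0.34 ± 0.13 (SE), but 0.20 without control ZT3 replicate 1 and 0.22 without control ZT15 replicate 2. It was 0.48 without control ZT3 replicate 2 and 0.47 without control ZT15 replicate 1. Each of the 3 had both ZT15 arrays above both ZT3 arrays in controls, as did kay, which makes 4 of 12, where 26.5% of all probe sets did. In the other direction 6 of 12 did not overlap, where 25.6% of all probe sets did. Among the 9 that were not dim, 4 had ZT15 above and 3 below. Of all 10479 probe sets that were not dim, 4134 and 2185 did.

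Within Tim-Fbl the time difference has no test of its own. Hr38 was 1.29 lower at ZT15 than at ZT3 on the log2 scale in Tim-Fbl (a difference of -1.29), against -1.51 in controls. The interaction of strain and time, 0.22 ± 0.16 (SE) for Hr38 with a 95% interval of -0.16 to 0.60, did not pass (limma adjusted p = 0.842). Jra was -0.39 and sr -0.30 in Tim-Fbl, against -0.12 and -0.10 in controls. For puc the values were 0.15 in Tim-Fbl and 0.44 in controls, for Hr3 0.27 and 0.37, and for kay 0.16 and 0.17.

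The sign of the time difference was not the same in both strains for Atf3 (-0.06 in Tim-Fbl, 0.01 in controls) and CG14186 (-0.02 and 0.08). The control times overlapped for both. For cbt the signs also differed, and its control times did not overlap. cbt had 11.03 in Tim-Fbl at ZT15 and 11.31 in Tim-Fbl at ZT3, a difference of -0.28. In controls it had 11.43 and 11.68 at ZT15 and 11.07 and 11.35 at ZT3, a difference of 0.34. A sign opposite to that of non-overlapping control times was seen for 4 of the 12 probe sets, 3 of them dim, where 20.1% of all probe sets showed it. For cbt the Tim-Fbl array at ZT15 was the lowest of the 6 and 0.52 under the control mean of that time. The interaction, -0.62 ± 0.23 (SE), had a 95% interval of -1.17 to -0.07 before adjustment and did not pass over all probe sets (limma adjusted p = 0.842). By limma 0 of the 12 passed for the interaction, with 2 at an unadjusted p under 0.05, cbt and the dim Ets21C. Of all 18769 probe sets, 0.0373% passed and 1014 had an unadjusted p under 0.05 (limma).

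**Figure D3:**
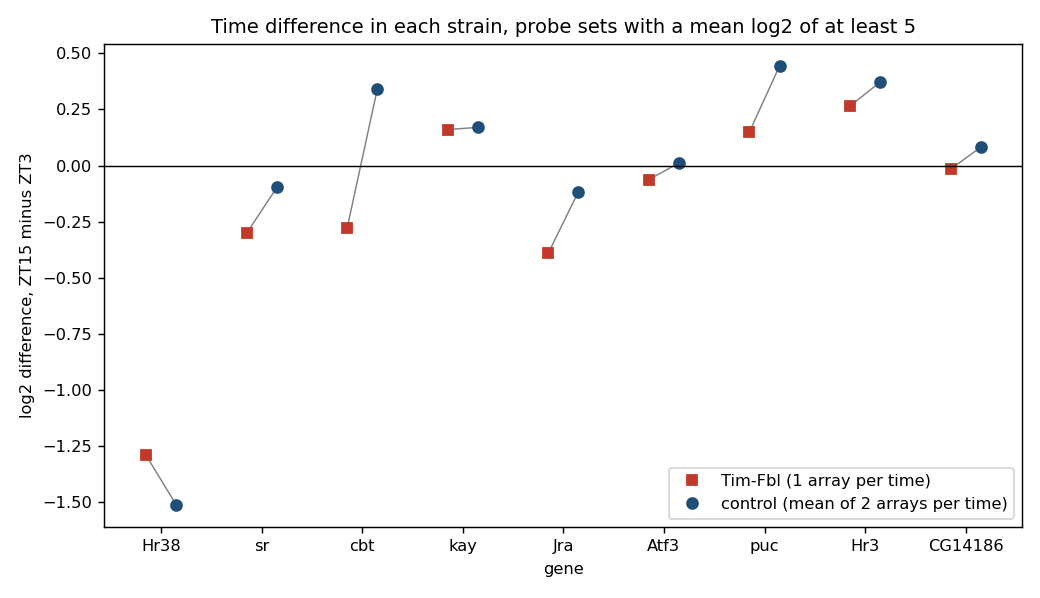
ZT15 minus ZT3 difference (log2, vertical axis) for the 9 probe sets that were not dim, with Tim-Fbl as red squares (1 array per time) and control as blue circles (means of 2 arrays per time). Hr38 is far below 0 in both strains, at -1.29 in Tim-Fbl and -1.51 in control, and cbt lies at -0.28 in Tim-Fbl and 0.34 in control.

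Genes that work with the 10 were taken from lists of the pathways, with the brightest probe set of each gene. Some of these genes had further probe sets, whose values are not reported here. As background for the count of each list, 5.44% of all probe sets were called higher in Tim-Fbl and 3.35% lower. Of the 10479 probe sets that were not dim, 9.01% and 4.87% were. The lists too were chosen with earlier results of these data known, so the shares are not an independent comparison. The JNK pathway carries stress and wound signals from the receptor through a kinase chain to Jun and Fos. Of its 16 listed genes 15 were measured, and 4 rose in Tim-Fbl, 0 fell and 11 did not pass, with a median of 0.24. raw, an antagonist of JNK signalling in the embryo, had 10.9 and 11.2 in Tim-Fbl at ZT15 and ZT3, against 10.03 to 10.33 on the control arrays, a rise of 0.92 ± 0.094 (SE). grnd, a receptor for the fly's tumour necrosis factor, rose by 0.64 ± 0.10 (SE). The adaptor gene Traf4 rose by 0.61 ± 0.15 (SE) and msn, an upstream kinase, by 0.45 ± 0.083 (SE). The Traf4 difference was 0.28 at ZT15 and 0.94 at ZT3, each from 1 Tim-Fbl array. Its interaction did not pass (limma adjusted p = 0.842). The ligand gene egr (0.31, limma adjusted p = 0.0545), the kinase gene hep (0.28) and bsk, which encodes JNK itself (0.03), did not pass.

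In the ERK pathway, which also feeds immediate early genes, 2 of 12 measured genes of 18 listed rose in Tim-Fbl, where 9.01% of probe sets that were not dim did, and 0 fell, with a median of 0.27. They were the repressor gene cic (0.52 ± 0.11 SE) and Mkp3, a phosphatase that acts on ERK (0.34 ± 0.082 SE). Of the genes that carry calcium and cAMP signals to the factor CREB, 2 of 11 measured of 18 listed rose, against the same 9.01%, and 0 fell, with a median of 0.20. Those were nej, the CBP coactivator (0.55 ± 0.082 SE), and CanA1, a calcineurin subunit (0.53 ± 0.087 SE). CrebB differed by -0.13 and CRTC, its coactivator, by 0.32, neither of which passed.

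Of 10 measured AP-1 and stress-related genes of 15 listed, Gadd45, a stress-response gene, rose by 0.49 ± 0.082 (SE), scaf fell by 0.43 ± 0.097 (SE), and 8 did not pass. The median was 0.10. The cytokine genes upd1 (-0.04) and upd2 (-0.13) and the growth-delay hormone gene Ilp8 (-0.08) lay under or near a mean log2 of 5. Of 13 measured nuclear receptor and ecdysone-response genes of 15 listed, 3 rose, again beside 9.01%, and 0 fell, with a median of 0.06. These were ftz-f1 (0.51 ± 0.094 SE), which acts after Hr3 in the ecdysone cascade, Eip93F (0.38 ± 0.083 SE) and usp, the partner of Hr38 and of the ecdysone receptor (0.33 ± 0.076 SE). By limma 0 genes of these 5 lists passed for time in controls. In the order given, 4, 6, 2, 1 and 3 genes of 15, 12, 11, 10 and 13 had an unadjusted p under 0.05 (limma). So did 3238 of all 18769 probe sets and 2602 of the 10479 that were not dim. The medians were 0.16 for JNK, 0.24 for ERK, 0.06 for calcium and cAMP, 0.04 for stress and 0.08 for nuclear receptors.

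Some markers of other cell types also differed between strains. Of 5 blood cell (hemocyte) markers, Hml rose by 0.71 ± 0.13 (SE) and eater by 0.65 ± 0.16 (SE), and NimC1 (0.33), crq (0.26) and He (-0.29) did not pass. The log2 of their mean level was 10.1 on each Tim-Fbl array, against 9.62 to 9.84 on the control arrays. Of the glial markers, alrm rose by 0.34 and 3 did not pass. Of 7 neuronal markers 0 passed, with 3 at an unadjusted p under 0.05, a median of 0.23 and 2 adjusted p-values of 0.0524 and 0.0535 (limma, elav and para). For time in controls the neuronal markers had a median of 0.40 and 0 passed by limma, with 6 at an unadjusted p under 0.05, while Hr38 was lower. Of all 10479 probe sets that were not dim, 4013 had an unadjusted p under 0.05 for strain and 2602 for time (limma). Both measured photoreceptor markers had values below 0, -0.22 for chp and -0.12 for trp, and neither passed. Of 3 measured muscle markers Act88F rose by 1.31, and up (0.13) and Mlc2 (-0.07) did not pass. Of 3 gut markers LysX rose by 3.92, epsilonTry fell by 0.31 and the dim Jon25Bi (-0.26) did not pass. Of 3 ovary markers grk rose by 0.57, the dim bcd fell by 0.31 and the dim osk (0.03) did not pass. Of 5 fat body markers 0 passed by limma for strain, with 1 at an unadjusted p under 0.05, Fbp1 (-0.24). The part of these markers in the levels of the 10 genes was not tested.

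**Figure D4:**
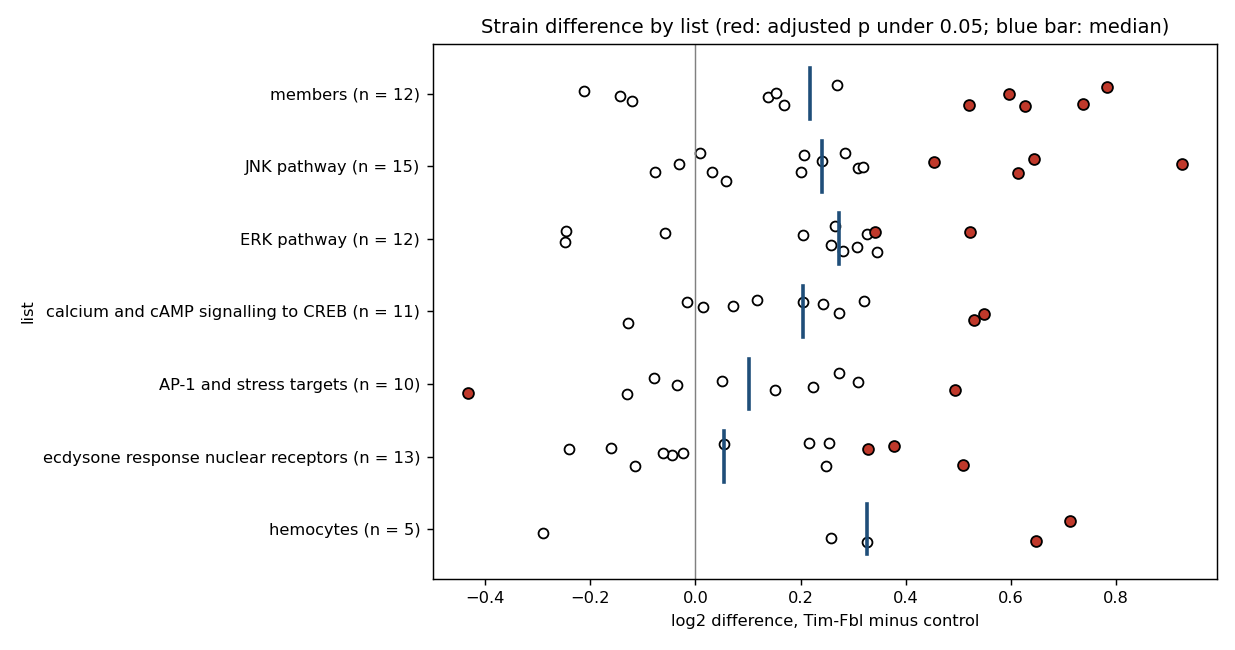
Strain difference (log2, Tim-Fbl minus control, horizontal axis) for the 12 member probe sets and for the genes of 6 lists, one point per probe set or gene. Red points passed at a limma adjusted p under 0.05 and blue bars are list medians. The medians lie between 0.06 and 0.33, and scaf is the only red point below 0.

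The genes whose levels over the 6 arrays were most like those of Hr38 were found by the root mean square difference of the centred log2 values, among 8976 probe sets of other genes that were not dim. They were Clk, the core clock activator (0.26), Gasp (0.26), Acsx3 (0.28), Ugt35B1, a glycosyltransferase gene (0.31), and GstD10, a glutathione transferase gene (0.31). Clk had 6.11 in Tim-Fbl at ZT15 and 7.71 in Tim-Fbl at ZT3, against 6.16 and 6.04 in controls at ZT15 and 7.57 and 7.37 at ZT3. Its time difference was like that of Hr38, as a choice on these arrays favours, while its strain difference, 0.13, did not pass. Gasp and GstD10 had strain differences of 0.73 and 0.74, both of which passed, while Acsx3 (0.32) and Ugt35B1 (0.19) did not pass.

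For Atf3 the most similar genes were pain, a TRP channel gene (0.050), Ude (0.055), CG9338 (0.055), lbm, a tetraspanin gene (0.056), and Timp, an inhibitor of metalloproteinases (0.058). Their strain differences were 0.66 to 0.75 and their time differences in controls -0.06 to 0.11. Because they were chosen on these same arrays, their step between strains and little difference between times follow from the choice.

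**Figure D5:**
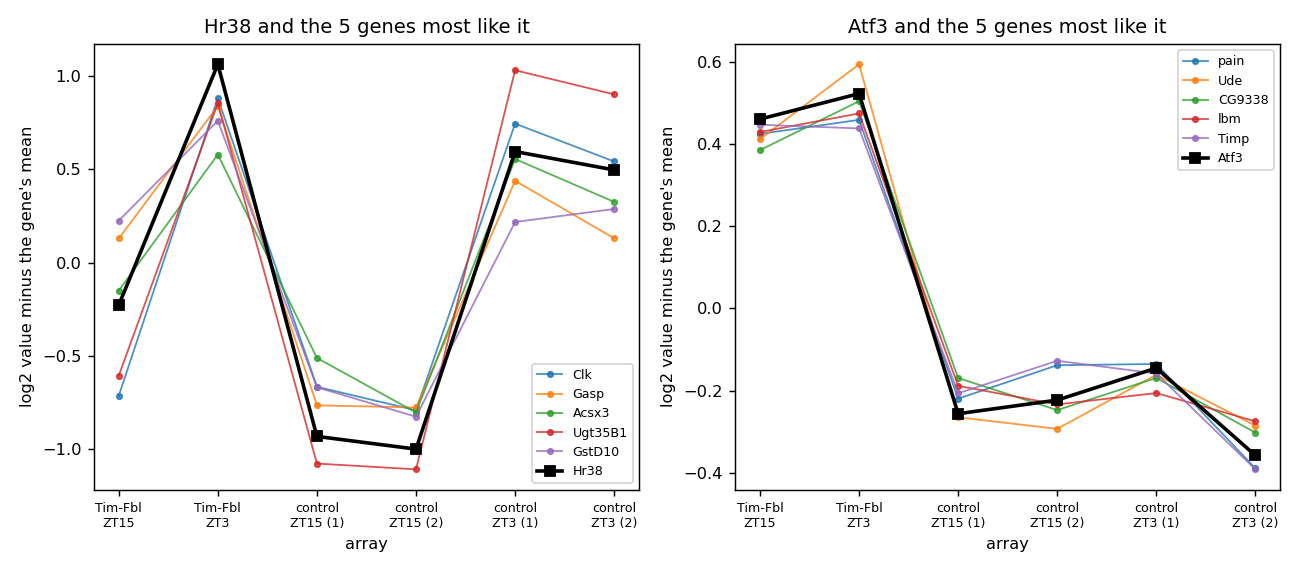
Log2 values minus each gene's own mean (vertical axes) on the 6 arrays for Hr38 and Atf3 (black squares) and the 5 genes most like each (coloured points). The genes like Hr38 are high at ZT3 and low at ZT15 in controls, and those like Atf3 are high on both Tim-Fbl arrays. These likenesses follow from choosing the genes on the same 6 arrays.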

How the data were processed

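The submitters deposited log2 values, made with RMA per the submitters' processing notes. No version of it is stated in the labels, and the base of the logarithm was inferred from the values. Because RMA brings the arrays to nearly 1 distribution, a change common to every transcript would be largely removed. The deposited arrays still differed slightly, with lower quartiles of 3.99 in Tim-Fbl at ZT15 and 4.16 in control ZT3 replicate 2. Of 18952 probe sets, 183 manufacturer's controls were left out. The annotation gave 1 symbol to 13647 of the 18769 tested, several to 402 and none to 4720. Tests used limma 3.58.1 (R 4.3.3), and p-values were adjusted by the Benjamini-Hochberg method across the whole array, with calls at an adjusted p under 0.05. Time in controls and the interaction came from 4 group means (2 residual degrees of freedom), and strain from an additive model (3). Each Tim-Fbl array was assumed to vary like the controls. All probe sets of the 10 genes are named. From each list, genes past the threshold are named for strain, or else some of those with the largest statistics. A few further list members are named for their place in a pathway and were chosen after their values were seen. The members and lists were chosen with earlier results of these data known. On simulated arrays with 200 of 18769 probe sets changed, 63.6% of 1.5-fold and 97.6% of 2-fold strain changes were found. The shares were 31.6% and 93.4% for time, and 0% and 11.0% for the interaction. These rates hold for 200 changed probe sets, while the data gave 1650 calls for strain, 132 for time and 7 for the interaction. Alternatives covered a filter at a mean log2 of 5, other scalings and variance models, gene averages, other designs, the replicate block and each array left out. Figures were drawn with matplotlib 3.10.9. Promoter sequences and genome coordinates were not used here.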

Additional observations from a re-analysis of the deposited data

Results flagged for a closer look

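cbt differed in sign between strains. Its ZT15 minus ZT3 difference was -0.28 in Tim-Fbl, from 1 array per time, while in controls both ZT15 arrays lay above both ZT3 arrays, by 0.34 on average. The interaction did not pass (limma adjusted p = 0.842), and 20.1% of all probe sets showed non-overlapping control times with the opposite sign in Tim-Fbl. The poly-A spike-in probe sets, which measure no fly transcript, read higher in Tim-Fbl at ZT15 (median 6.76) than on the control arrays (5.42 ± 0.31, SD, n = 4).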

How the results depend on the processing

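Hr38 stayed lower at ZT15 in controls in all 14 alternatives (-1.61 to -0.86), and Atf3 higher in Tim-Fbl in all 15 (0.66 to 0.78, limma adjusted p up to 0.0492). Without either Tim-Fbl array 2 probe sets passed for strain in place of 5, and 5 passed without any control array in turn. With the probe sets of a gene averaged 3 passed: Hr38 (0.25) and kay (0.19) did not, as their dim probe sets entered the mean. All sign changes were in differences that had not passed. For time in controls, Atf3 was -0.032 after quantile normalization, -0.073 after cyclic loess, -0.013 in the additive model and -0.094 to 0.12 with a control array left out. CG14186 was -0.096 to 0.26 with a control array left out. For strain, with a Tim-Fbl or control array left out, the dim Hr38 probe set was -0.30 to 0.062, cbt -0.52 to 0.098 and Ets21C -0.059 to 0.40. For the interaction, kay was 0.042 after quantile normalization, 0.061 after cyclic loess, 0.077 after averaging and -0.087 to 0.068 with a control array left out. Atf3 was 0.010 after cyclic loess and -0.18 to 0.032 with a control array left out, and CG14186 -0.28 to 0.080. With the replicate block 1 probe set passed for time, 5 for strain and 0 for the interaction. Deviations of same-numbered controls correlated at 0.038 over probe sets, so the numbers are not taken as pairs. The block gave 334 calls of all probe sets for time in place of 132, 1212 for strain in place of 1650 and 23 for the interaction in place of 7. Subtracting array medians gave 1239 higher and 477 lower for strain, and quantile normalization 689 and 593, in place of 1021 and 629. Leaving out an array gave 27 to 340 calls for time, 395 to 1255 for strain and 0 to 57 for the interaction, and leaving out probe sets under a mean log2 of 5 gave 83 for time and 0 for the interaction.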
